A study of Mus musculus with 18 samples.

Results

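Lineage-negative, Sca-1+, c-Kit+ (LSK) bone marrow cells of NZBW/F1 mice with lupus (F1-L) were compared with LSK cells of prediseased NZBW/F1 mice (F1-P). All 6 LSK libraries whose labels place them in these groups entered, 3 per group, out of 18 samples in the series. Of the 19780 genes in the deposited LSK table, 14332 had at least 1 CPM (reads of the gene per scaled library size) in at least 3 of the 6 libraries and were tested. NZBW/F1 is the first-generation cross of NZB and NZW mice, whose females spontaneously develop a lupus-like disease with glomerulonephritis. F1-P females were 12 weeks old and F1-L females were 28 to 36 weeks old, with disease staged by proteinuria. Healthy female C57BL/6 mice of 12 weeks (B6-Y) and of 28 to 36 weeks (B6-O), with 3 LSK libraries each, serve here as an age contrast in another strain. Each F1-L library comes from older mice than each F1-P library, so disease and age cannot be told apart within NZBW/F1. The labels do not say whether replicates are single mice or pools, so p-values measure the spread between these libraries, which may be in part technical.

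LSK cells hold the haematopoietic stem cells and the multipotent progenitors that descend from them. Progenitors turn towards granulocytes and monocytes under PU.1 and the C/EBP factors, and towards B and T cells with Flt3, Il7r and the recombination genes. Stem cells that carry megakaryocyte genes are known to accumulate with age, and interferons and interleukin 1 are known to act on this compartment. The sort took cells negative for CD11b, Gr-1, Ter119, B220 and CD16/32, which should leave out mature neutrophils, macrophages, erythroid cells and B cells. Markers of these cells are therefore given beside the progenitor programmes.

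The 6 libraries held 23772252 to 27288453 reads in genes, and immunoglobulin genes took a large and uneven part of them: 16.8, 21.6 and 25.6% in F1-L and 19.2, 36.6 and 35.1% in F1-P. Values in a row are in the order of replicates 1, 2 and 3, and the libraries are named with these numbers, from F1-L1 to B6-Y3. In C57BL/6 LSK cells the share was between 0.301 and 4.76%. F1-P1 lay within the F1-L range, and F1-P2 and F1-P3 above it. Mitochondrially encoded genes took 0.794 to 1.22% of reads with the groups overlapping. On the first principal component, which held 44.5% of the variance and 47.6% without immunoglobulin genes, the F1-L libraries were at 0.563, 0.36 and 0.218 and the F1-P libraries at -0.39, -0.563 and -0.189. The groups did not overlap on it, and F1-L3 and F1-P3 were its nearest pair. The defining genes of the sort were read in every library: Kit was at 339.8, 442 and 386 CPM in F1-L and 257, 279.5 and 373 CPM in F1-P, and Ly6a, which encodes Sca-1, at 293, 344 and 451 and 362, 876 and 879 CPM.

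Emilin2 and Apoe rose in F1-L, and the immunoglobulin V segments Ighv7-1 and Igkv4-58 fell. These 4 of the 14332 tested genes (0.0279%) passed an adjusted p of 0.05 and a 1.5-fold change by limma on log2(CPM + 1). Emilin2, which encodes an extracellular glycoprotein of elastic fibres (chromosome 17, bases 71252172 to 71311978, GRCm38), was at 68.4, 65.6 and 63.5 CPM in F1-L and 14.2, 16.5 and 23 CPM in F1-P. Every F1-L library was thus above every F1-P library, with a log2 fold change of 1.85 ± 0.17 (SE, n = 3 per group, limma adjusted p = 0.0496). Apoe, the apolipoprotein E that macrophages secrete (chromosome 7, bases 19696109 to 19699188), was at 45.2, 37.8 and 41.2 CPM in F1-L and 14.6, 15.6 and 17.1 CPM in F1-P. The log2 fold change of Apoe was 1.34 ± 0.12 (limma adjusted p = 0.0496). In C57BL/6 Apoe had a log2 fold change of 0.91 with age, and the strains' fold changes differed by 0.44. The heavy-chain variable segment Ighv7-1 (chromosome 12, bases 113896408 to 113896946) was at 580.2, 679 and 609 CPM in F1-L and 4228, 5882 and 5558 CPM in F1-P, with a log2 fold change of -3.05 ± 0.25 (limma adjusted p = 0.0429). The kappa segment Igkv4-58 (chromosome 6, bases 69500254 to 69500786) was at 9.21, 3.3 and 5.12 CPM in F1-L and 118, 117 and 134 CPM in F1-P, a log2 fold change of -4.26 ± 0.29 (limma adjusted p = 0.0251). In both segments all F1-L libraries were low. No gene was called when F1-P2 was left out. Without single F1-L libraries 1 or 2 genes were called, without F1-P1 it was 16 (2 higher, 14 lower), and without F1-P3 it was 25 (20 higher, 5 lower).

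Counts by other rules are given as descriptions. At an unadjusted limma p below 0.05, 1230 genes (8.58%) were higher and 600 (4.19%) lower in F1-L. In 1491 genes (10.4%) every F1-L library was above every F1-P library, and in 1045 (7.29%) every one was below. The edgeR likelihood ratio test on the recovered reads, the kind of model the study used, called 494 genes higher (3.45%) and 163 lower (1.14%), and DESeq2 called 541 and 193. All 4 limma genes were among the calls of both. The edgeR quasi-likelihood test called 1 gene higher and 2 lower. Of the genes that the likelihood ratio test called, 1 of the higher and 42 of the lower were immunoglobulin genes. These shares are the background for the gene lists that follow, for which "higher" and "lower" give the direction of the log2 fold change and no member outside the 4 genes passed the limma threshold. Leaving out F1-P2 brought the likelihood ratio calls to 119 higher and 52 lower, leaving out F1-L2 to 308 and 88, and leaving out F1-P1 to 302 and 463.

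**Figure D1:**
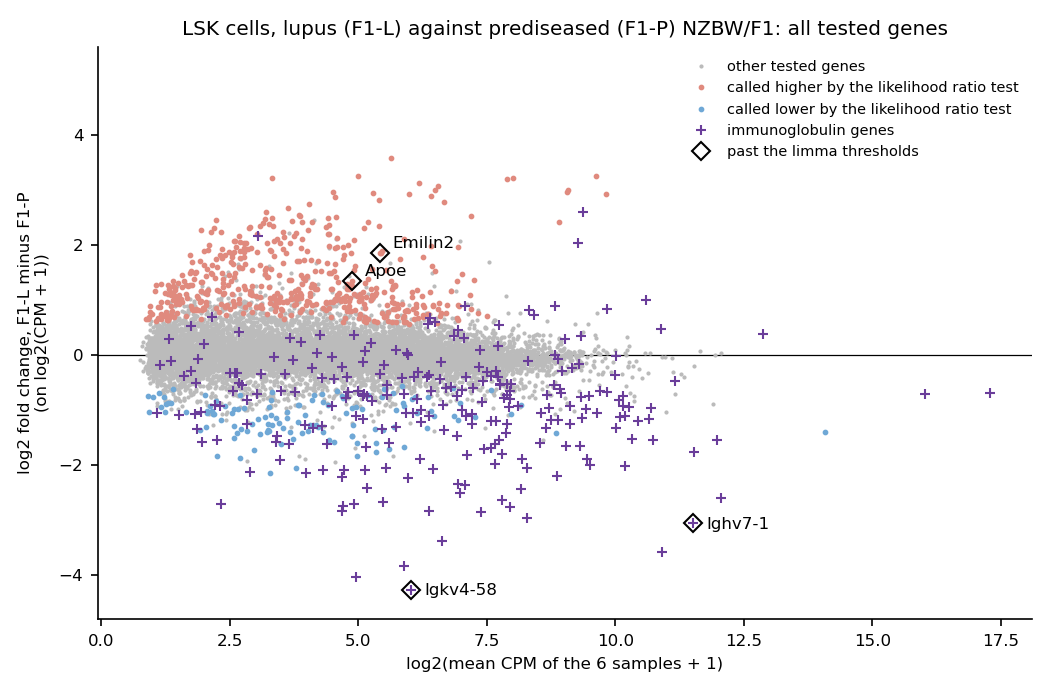
Log2 fold change of F1-L over F1-P against the log2 mean CPM of the 6 libraries for the 14332 tested genes. Diamonds mark the 4 genes past the limma thresholds, coloured points the genes called by the likelihood ratio test (494 higher, 163 lower), and purple crosses the 241 tested immunoglobulin genes, most of which lie below 0.

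Genes that steer progenitors to the granulocyte and monocyte lineages were mostly higher in F1-L. Of 18 tested transcription factors and growth factor receptors, 9 were higher and 0 lower at an unadjusted p below 0.05, with a median log2 fold change of 0.66 against -0.01 over all genes tested. The likelihood ratio test called 6 higher and 7 did not overlap, and over all tested genes the corresponding shares in the higher direction were 8.58% for the unadjusted p, 3.45% for the likelihood ratio test and 10.4% for no overlap. Cebpa, which encodes the C/EBP factor needed for granulocyte-monocyte progenitors to form, was at 91.8, 99.6 and 64.1 CPM in F1-L and 21.7, 18.9 and 35.3 CPM in F1-P. The log2 fold change of Cebpa was 1.74 ± 0.26 (limma adjusted p = 0.172). Spi1, which encodes PU.1, was at 132, 80.7 and 96.2 CPM in F1-L and 63.1, 52.1 and 64.6 CPM in F1-P. For Cebpd the values were 40.7, 13.3 and 15.8 and 4.7, 4.61 and 7.58 CPM, and for Cebpe, the factor of late granulocyte maturation, 45.2, 19.6 and 7.37 and 1.15, 1.63 and 6.32 CPM. The groups did not overlap in these 4 genes. Among receptors, Csf3r, the receptor of granulocyte colony-stimulating factor, was at 302, 166 and 132 CPM in F1-L and 71.9, 80.9 and 114 CPM in F1-P. Csf1r, through which M-CSF acts on monocytes and macrophages, was at 96.4, 24.8 and 104 and 19.6, 10.1 and 33.8 CPM, and F1-L2 lay between the F1-P values. Irf8, a monocyte and dendritic cell factor, was at 394, 106 and 378 CPM in F1-L and 201, 177 and 214 CPM in F1-P, so that it overlapped, with F1-L2 the lowest of the 6.

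In C57BL/6 the Cebpa levels of the age groups overlapped. Cebpa was at 48.7, 48.6 and 57.1 CPM in B6-O and 54.8, 39.8 and 55.9 CPM in B6-Y, a log2 fold change of 0.05, and the difference between the strains' fold changes was 1.69 ± 0.33 (limma adjusted p = 0.533). Over the 12 LSK libraries this difference of differences had an unadjusted p below 0.05 in the higher direction in 431 of 15084 genes (2.86%) and in the lower in 160 (1.06%). No gene passed the adjusted threshold by limma or by the quasi-likelihood test, while the likelihood ratio test called 9 higher and 1 lower and DESeq2 26 and 3. Of the 18 myeloid factors and receptors, 8 were higher in that difference at an unadjusted p below 0.05 and 0 lower. In C57BL/6 itself 642 of 15084 genes (4.26%) were higher and 643 (4.26%) lower with age at an unadjusted p below 0.05, and of the 18 genes 0 were higher and 2 lower, with a median of -0.13.

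Primary granule genes, which promyelocytes express, were higher in the median (1.27 on the log2 scale, 16 tested) but uneven. At an unadjusted p below 0.05, 7 were higher and 0 lower, with 4 without F1-L1 or F1-P2 and 3 without F1-P1. Mpo, myeloperoxidase, was at 1115, 369 and 1447 CPM in F1-L and 432, 245 and 1160.3 CPM in F1-P. Elane, neutrophil elastase, was at 245, 90.4 and 178 CPM in F1-L and 9.81, 22.6 and 209.8 CPM in F1-P. In both, F1-P3 lay inside the F1-L range and F1-L2 was the lowest F1-L library, so the groups overlapped. Cd63, a granule membrane protein that platelets also carry, was at 72.7, 84.1 and 60.4 CPM in F1-L and 23.7, 24.2 and 42.9 CPM in F1-P without overlap.

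Of the 43 gene lists, that of mature neutrophils had the highest median. All 18 tested markers of the 20 listed were higher in F1-L, 17 at an unadjusted p below 0.05 and 17 by the likelihood ratio test, with a median log2 fold change of 2.86. Ngp, a granule protein of late precursors, was at 2789, 1121 and 430.5 CPM in F1-L and 65.3, 99.5 and 236 CPM in F1-P. Camp, the cathelicidin, was at 869, 408 and 135 CPM in F1-L and 20.5, 32.4 and 82.3 CPM in F1-P. S100a8, which encodes a calprotectin subunit, was at 1741, 759 and 329.6 CPM in F1-L and 47.4, 82.2 and 227 CPM in F1-P. F1-L1 was the highest of F1-L in all 18, and F1-P3 the highest of F1-P in 17. Log2 fold changes were 3.25 ± 0.72 for Ngp, 3.22 ± 0.74 for Camp and 2.97 ± 0.73 for S100a8, with limma adjusted p-values of 0.178, 0.186 and 0.194. Ltf, Mmp8, Cd177, Retnlg and Ifitm6 had the same order of libraries, with log2 fold changes from 2.97 to 3.12.

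The summed level of the neutrophil markers was 13044, 5224 and 2149 CPM in F1-L and 379.8, 604 and 1395 CPM in F1-P. It thus varied several-fold within F1-L, and its lowest F1-L library was above the highest F1-P library. Genes of some myeloid antigens that the sort excluded went the same way, and none is given here for Ter119 or B220. Itgam, which encodes CD11b, was at 71.2, 34.6 and 17.7 CPM in F1-L and 5.52, 7.24 and 13.7 CPM in F1-P. Ly6g, a target of the Gr-1 antibody, was at 44.8, 17.3 and 5.48 CPM in F1-L and 1.2, 2.45 and 5.98 CPM in F1-P. Fcgr3, which encodes CD16, was at 37.9, 12.7 and 11.4 and 3.59, 8.52 and 9.04 CPM. Itgam and Fcgr3 did not overlap between the groups, while in Ly6g F1-L3 was below F1-P3. Single C57BL/6 libraries reached the same sums, with 2032, 1025 and 11606 CPM in B6-O and 672, 6145 and 649 CPM in B6-Y. The median log2 fold change of the list with age in C57BL/6 was 1.03, with 0 higher and 0 lower at an unadjusted p below 0.05. In bulk RNA, fewer cells of a type and less RNA per cell cannot be told apart, and the part of mature cells in the differences of progenitor genes was not tested. Within F1-L, Cebpa was highest in F1-L2, and Spi1, Cebpd, Cebpe and Csf3r in F1-L1, where the neutrophil sum was highest. Within F1-P, each of these genes, Cebpa included, was highest in F1-P3, as was the neutrophil sum.

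The 12 genes with the largest positive fold changes also held other products of myeloid cells. Olfm4, an olfactomedin of neutrophil granules, was at 113, 38.6 and 21.6 CPM in F1-L and 1.69, 3.68 and 8.45 CPM in F1-P. Ace, the angiotensin-converting enzyme, was at 26.3, 5.49 and 19.9 CPM in F1-L and 0.247, 0.467 and 1.51 CPM in F1-P, and in C57BL/6 at 1.06, 0.758 and 3.58 CPM in B6-O and 0.124, 3.88 and 0.516 CPM in B6-Y. The difference between strains for Ace was 2.89 ± 0.89 (limma adjusted p = 0.976). In all 12 of these genes F1-L1 was the highest F1-L library and F1-P3 the highest F1-P library. Over all 14332 genes these libraries were the highest of their group in 39.3 and 30%. F1-P3 was also the highest of F1-P in 400 of the 494 genes called higher by the likelihood ratio test (81.0%).

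**Figure D2:**
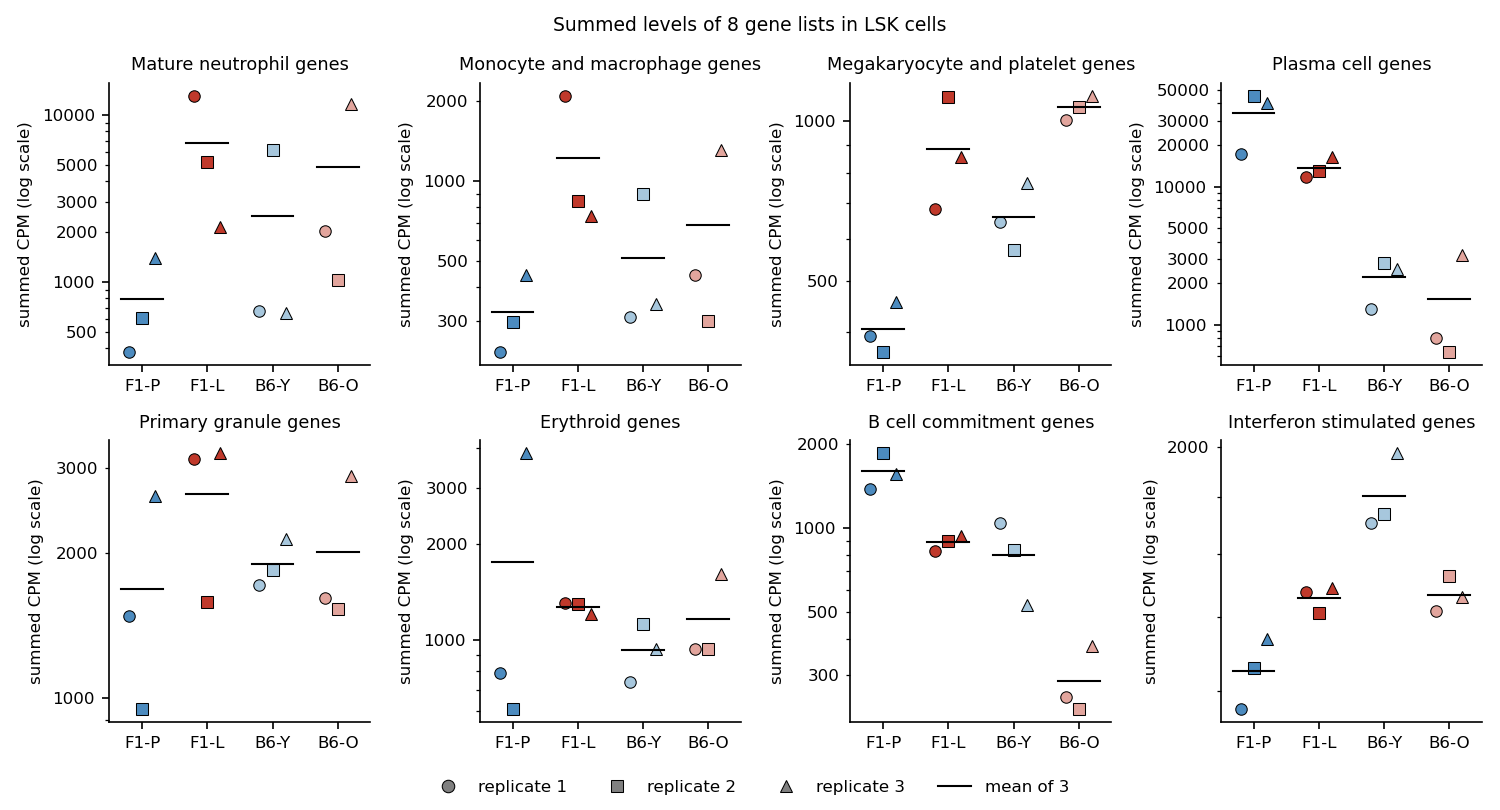
Summed CPM of 8 gene lists in each of the 12 LSK libraries, on log axes, by group, with a bar at the mean of 3. The neutrophil sum is highest in F1-L1 (13044 CPM) and also high in B6-O3 and B6-Y2, while the plasma cell sum is highest in F1-P2 and F1-P3.

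Macrophage genes were higher in F1-L, with a median below 0 with age in C57BL/6. Of 22 tested markers, 15 were higher and 0 lower at an unadjusted p below 0.05, 13 by the likelihood ratio test, with a median log2 fold change of 1.13. Leaving out F1-L1 brought the 15 to 9, and leaving out replicate 3 to 10. Cd5l, a scavenger protein that tissue macrophages secrete, was at 6.33, 3.5 and 2.78 CPM in F1-L and 0.289, 0.467 and 0.486 CPM in F1-P. C1qa, a chain of complement C1q, was at 9.09, 3.66 and 4.13 CPM in F1-L and 0.907, 1.28 and 1.46 CPM in F1-P. Lyz2, the lysozyme of neutrophils and macrophages, was at 1529.7, 595 and 334 CPM in F1-L and 88.3, 112 and 199.98 CPM in F1-P. The groups did not overlap in these 3, and F1-L1 was the highest in each. Vcam1, an adhesion molecule of marrow macrophages and stroma, was at 31.5, 13.4 and 9.25 CPM in F1-L and 1.81, 3.38 and 7.29 CPM in F1-P. In B6-O the median of the list was lower than in B6-Y (-0.45), with 0 higher and 2 lower at an unadjusted p below 0.05, and 14 of the 22 markers were higher in the difference between strains. Cd5l had the lowest p of any gene in that difference, 2.80 ± 0.39 on the log2 scale (limma adjusted p = 0.222). The summed macrophage level was 2095, 841 and 743 CPM in F1-L, in the order of the neutrophil sum, and 228, 295 and 447 CPM in F1-P. Lyz2, which neutrophils share, made up most of it in F1-L1 and F1-L2. Without Lyz2 the sum did not keep that order: F1-L2 was the lowest of F1-L and close to F1-P3. In C57BL/6 the sum with Lyz2 was 445, 300 and 1313 CPM in B6-O and 310, 895 and 345 CPM in B6-Y. There the age groups overlapped, and the mean was higher in B6-O (686 against 517 CPM) although the median fold change was below 0.

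Matrix and adhesion genes held the largest positive fold change among all tested genes. Fn1, which encodes fibronectin, was at 158, 65.4 and 49.9 CPM in F1-L and 2.84, 7.18 and 8.79 CPM in F1-P, so that the lowest F1-L library was above every F1-P library by several fold. The log2 fold change of Fn1 was 3.59 ± 0.50 (limma adjusted p = 0.164), and in C57BL/6 0.46, with a difference of 3.13 ± 0.89 (limma adjusted p = 0.976). Of the 30 tested genes of the list, 13 were higher and 1 lower at an unadjusted p below 0.05, against 5 and 2 in C57BL/6. Other lists also hold 7 of the 30. Among the 13 higher, Itgam is also in the neutrophil list, Vcam1 in the macrophage list and Itgb3 in the megakaryocyte list. Emilin1, the paralogue of Emilin2, was at 114, 123 and 122 CPM in F1-L and 85.7, 71.1 and 87.8 CPM in F1-P, again without overlap. Thrombospondin, Thbs1, which platelets and macrophages release, was at 291, 246 and 68.6 CPM in F1-L and 38.5, 49.3 and 42 CPM in F1-P. Fn1 and Thbs1 were highest in F1-L1 and lowest in replicate 3, while Emilin2 was nearly level over the F1-L libraries. Emilin2 in C57BL/6 was at 34.6, 37.2 and 42.2 CPM in B6-O and 22.6, 31.8 and 19.4 CPM in B6-Y, and its difference between strains was 1.22 ± 0.28 (limma adjusted p = 0.678).

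Megakaryocyte and platelet genes were higher in F1-L, and higher with age in C57BL/6 too. All 14 tested members were higher, 12 at an unadjusted p below 0.05 and 12 without overlap, with a median log2 fold change of 1.05. In C57BL/6 the median was 0.77, with 10 higher and 0 lower. Itga2b, the integrin chain CD41, was at 44.5, 79.3 and 83.3 CPM in F1-L and 14.3, 15.8 and 22.4 CPM in F1-P. Selp, P-selectin, was at 7.73, 30.5 and 17.4 CPM in F1-L and 1.9, 2.74 and 3.4 CPM in F1-P. Vwf, von Willebrand factor, was at 31.3, 119 and 57.4 CPM in F1-L and 16.9, 12.5 and 18.5 CPM in F1-P. Gata2, a factor of stem, megakaryocyte and mast cells, was at 109.7, 267 and 202 CPM in F1-L and 70, 49.2 and 76.7 CPM in F1-P. In Selp, Vwf and Gata2 F1-L2 was the highest and replicate 1 the lowest of F1-L, unlike the order of the neutrophil markers. With F1-P3 left out 10 of the 14 still had an unadjusted p below 0.05. Itga2b was at 159, 133 and 186 CPM in B6-O and 95.6, 67.3 and 99.5 CPM in B6-Y, and the difference between strains was 1.03 ± 0.36 (limma adjusted p = 0.976).

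Stem cell genes differed less. Of 21 tested genes of the LSK gate and of stem cells, 7 were higher and 2 lower at an unadjusted p below 0.05, with a median of 0.37 in NZBW/F1 and 0.42 in C57BL/6, and none had an unadjusted p below 0.05 in the difference. Procr, the endothelial protein C receptor that marks long-term stem cells, was at 24.2, 30.9 and 31.4 CPM in F1-L and 19.2, 17.3 and 22.1 CPM in F1-P. Hoxb5, another marker of these cells, was at 1.96, 4.41 and 3.86 CPM in F1-L and 1.48, 0.934 and 1.51 CPM in F1-P. Tek, the angiopoietin receptor, was at 11.4, 25.2 and 17.2 CPM in F1-L and 6.72, 5.37 and 9.81 CPM in F1-P. None of the 3 overlapped. The log2 fold changes of Procr, Hoxb5 and Tek were 0.54, 0.90 and 1.16, and in C57BL/6 0.56, 0.84 and 0.72. The 2 lower genes were Ly6a (-0.87, and -0.02 in C57BL/6) and Mn1 (-1.08, and -1.21 in C57BL/6). The summed level of the list overlapped, at 2385, 2937 and 2820 CPM in F1-L and 2274, 2743 and 2913 CPM in F1-P. The higher count was 3 without F1-L2, 4 without F1-P1 or 2, and 11 without F1-L1, and the lower count was 0 or 1 without any single library.

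Genes of lymphoid priming were lower in F1-L. Of 17 tested, 0 were higher and 8 lower at an unadjusted p below 0.05 (median -0.65), and in C57BL/6 0 were higher and 6 lower (median -0.40). Dntt, terminal deoxynucleotidyl transferase, was at 197, 244 and 197 CPM in F1-L and 1375, 464 and 290.4 CPM in F1-P. Rag1, a subunit of the V(D)J recombinase, was at 38.8, 21.7 and 13.9 CPM in F1-L and 173, 67.3 and 36.2 CPM in F1-P. Rag2, its partner, was at 5.77, 2.62 and 2.25 CPM in F1-L and 17.9, 9.8 and 6.61 CPM in F1-P. F1-P1 was the highest in all 3, and Rag1 overlapped between the groups. Flt3, the receptor tyrosine kinase of multipotent progenitors, was at 276, 137 and 353 CPM in F1-L and 599, 298 and 337 CPM in F1-P, with overlap. Leaving out F1-L2 or F1-P2 brought the 8 to 4, and leaving out F1-L3 or F1-P1 to 5.

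B cell commitment genes were mostly lower as well, in C57BL/6 too. Of 20 tested, 1 was higher and 9 lower at an unadjusted p below 0.05 in NZBW/F1 (median -0.82), against 0 and 15 in C57BL/6 (median -1.68). Ebf1, which sets the B cell fate, was at 14.8, 16.3 and 4.99 CPM in F1-L and 90.2, 36.5 and 15.1 CPM in F1-P. Blnk, the adaptor of the B cell receptor, was at 66.8, 75 and 73.6 CPM in F1-L and 195, 166 and 116 CPM in F1-P. Cd79a, the signalling chain of that receptor, was at 53, 44.6 and 69.8 CPM in F1-L and 97.3, 146 and 119.5 CPM in F1-P. Blnk and Cd79a did not overlap, while Ebf1 overlapped and varied several-fold within F1-P. Vpreb1, part of the surrogate light chain of pre-B cells, was at 4.77, 6.6 and 1.26 CPM in F1-L and 30.5, 12.8 and 5.44 CPM in F1-P. The member with a higher level was Cd22, a lectin of B cells, at 19.2, 7.87 and 11.3 CPM in F1-L and 2.56, 3.56 and 4.37 CPM in F1-P. The lower count came to 3 without F1-L3 or without F1-P2, and to 5 without F1-L1. Foxo1, a factor that B cell progenitors need, was at 65.2, 59.4 and 54 CPM in F1-L and 109.98, 115 and 80.9 CPM in F1-P. Bcl2l11, which encodes the pro-apoptotic protein Bim, was at 59.6, 43.3 and 57.6 CPM in F1-L and 160.3, 117 and 68.9 CPM in F1-P, and it was the only one of 15 Bcl2 family genes with an unadjusted p below 0.05, with 2 lower without F1-L3 and 1 higher and 4 lower without F1-P1.

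**Figure D3:**
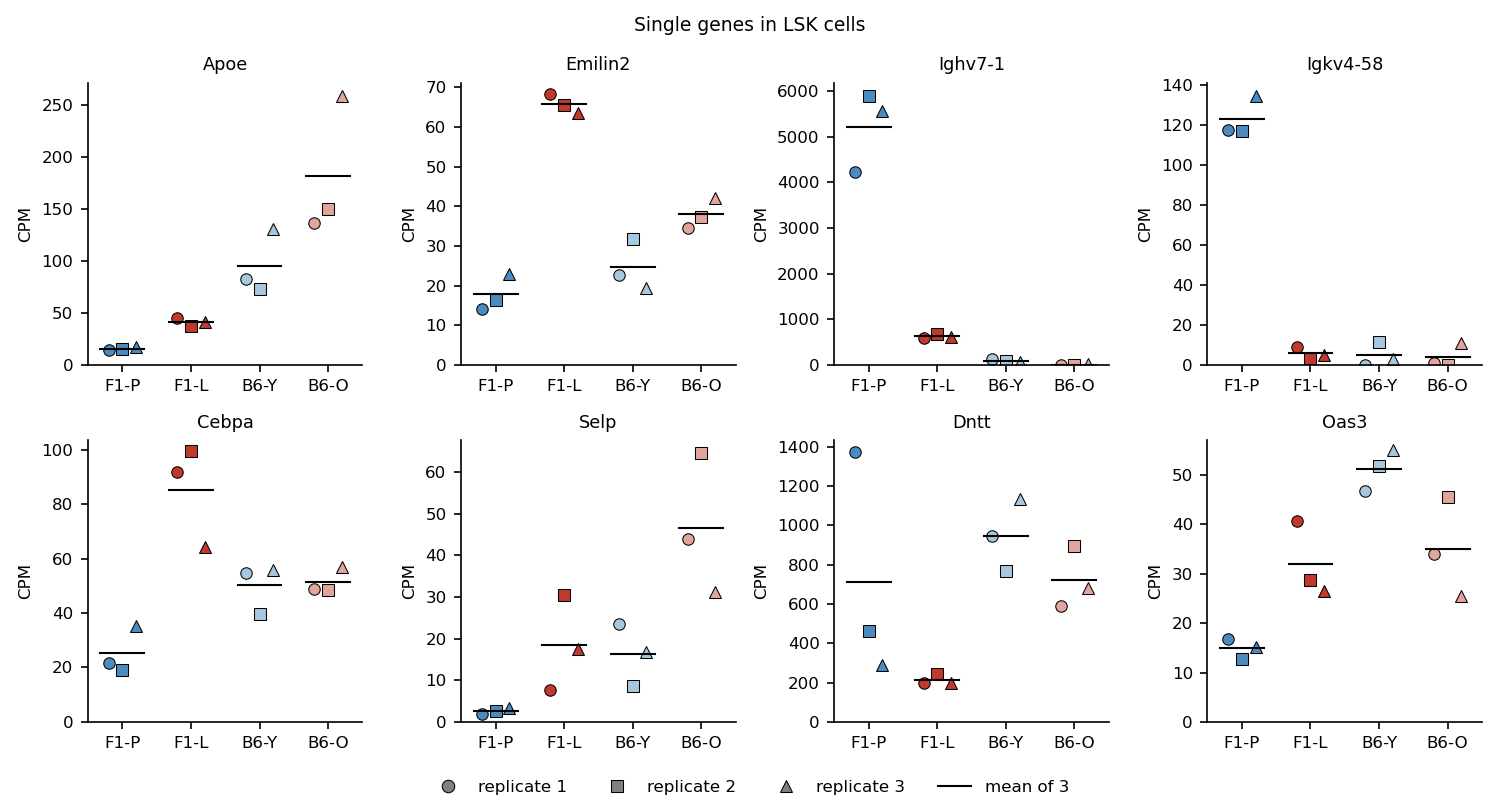
CPM of 8 single genes in each of the 12 LSK libraries by group, on linear axes from 0, with a bar at the mean of 3. Emilin2 and Cebpa are highest in F1-L, Apoe and Selp are higher in the older group of both strains, and Oas3 is higher in F1-L than F1-P but lower in B6-O than B6-Y.

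The erythroid genes depended on 1 library. Of 18 tested, 5 were higher and 0 lower at an unadjusted p below 0.05 (median 0.72), with 17 higher once F1-P3 was left out and 3 without F1-L2, F1-P1 or F1-P2. Hbb-bs, a beta globin, was at 73.6, 89.9 and 71.2 CPM in F1-L and 13.6, 17.2 and 1453 CPM in F1-P. The summed erythroid level was 1308, 1303 and 1213 CPM in F1-L and 793, 610.02 and 3858 CPM in F1-P, so that F1-P3 was the highest of the 6 and the other F1-P libraries the lowest. Gata1, the erythroid and megakaryocyte factor, did not overlap, at 18.7, 19 and 18.5 CPM in F1-L and 7.54, 6.19 and 13.4 CPM in F1-P. Its co-factor Tal1 was at 104, 125 and 106 CPM in F1-L and 56.9, 44.4 and 84.4 CPM in F1-P. Klf1, which switches on globin genes, was at 27, 16.4 and 15.5 CPM in F1-L and 9.19, 8.17 and 19.5 CPM in F1-P, with overlap.

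Type I interferon stimulated genes had medians of opposite sign in the 2 strains. Of 35 tested, 10 were higher and 0 lower in F1-L at an unadjusted p below 0.05 (median 0.28), 11 without overlap, and in C57BL/6 0 were higher with age and 14 lower (median -0.32). In the difference between strains 17 of the 35 were higher and 0 lower, against 2.86 and 1.06% of all genes. Oas3, an oligoadenylate synthetase that senses double-stranded RNA, was at 40.7, 28.7 and 26.5 CPM in F1-L and 16.8, 12.8 and 15.2 CPM in F1-P. In C57BL/6 it was at 33.9, 45.5 and 25.4 CPM in B6-O and 46.7, 51.8 and 55 CPM in B6-Y. The difference for Oas3 was 1.61 ± 0.30 (limma adjusted p = 0.533). Oasl2 was at 38, 46.7 and 43.9 CPM in F1-L and 20.1, 16.4 and 27.3 CPM in F1-P, and Ifih1, the RNA sensor MDA5, at 29.8, 40.8 and 34 and 16.8, 17.8 and 24 CPM. Ifit1 was at 4.89, 6.32 and 5.97 CPM in F1-L and 3.13, 3.97 and 4.37 CPM in F1-P. The groups did not overlap in these 4 genes, with log2 fold changes from 0.48 to 1.03. By direction 28 of the 35 were higher and 7 lower, and Isg15 (-0.21) and Mx1 (-0.05) were among the lower. The summed level was 1475, 1412 and 1487 CPM in F1-L, 1155, 1259 and 1337 CPM in F1-P, 1418, 1526 and 1460.00 CPM in B6-O and 1704, 1737 and 1976 CPM in B6-Y, so that F1-L lay above F1-P and below B6-Y. Leaving out F1-L3 or F1-P2 brought the 10 to 5.

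Genes induced by interferon gamma differed little as a list (23 tested, 3 higher and 2 lower at an unadjusted p below 0.05, median 0.14). Gbp6, a guanylate-binding protein, was at 8.65, 20.3 and 3.77 CPM in F1-L and 7.34, 4.84 and 3.69 CPM in F1-P, where F1-L3 was below 2 of the F1-P libraries. Gbp2 was at 31.4, 38.5 and 30 CPM in F1-L and 24, 23.2 and 27.4 CPM in F1-P without overlap. Of 11 MHC class II genes, 7 were higher and 1 lower at an unadjusted p below 0.05 (median 0.57). Ciita, the master regulator of class II genes, was at 13.6, 14.9 and 11.6 CPM in F1-L and 8.41, 7.64 and 8.21 CPM in F1-P. H2-Aa, the class II alpha chain, was at 74.3, 97.8 and 97.4 CPM in F1-L and 47.2, 42.9 and 54.4 CPM in F1-P. H2-DMb2, a chain of the peptide loader, was at 10.5, 8.95 and 10.9 CPM in F1-L and 5.81, 4.2 and 5 CPM in F1-P. All 3 were without overlap. Cd74, the invariant chain, which held most of the reads of the list, was at 705, 918 and 1155 CPM in F1-L and 961, 2075 and 2139 CPM in F1-P, with overlap, and H2-Eb2 at 3.48, 4.93 and 3.77 and 10.1, 5.78 and 5.15 CPM. The summed level of the class II list was 1062, 1335 and 1609.6 CPM in F1-L and 1262, 2356 and 2441 CPM in F1-P, so that its mean was lower in F1-L while the median fold change was above 0. In C57BL/6 Ciita had a log2 fold change of 0.00. Of 14 class I genes 1 was higher and 0 lower at an unadjusted p below 0.05. Leaving out F1-L2 brought the 3 higher interferon gamma genes to 1, and no single library brought the 7 class II genes below 5.

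Toll-like receptors and their signalling genes were higher in 8 of 22 at an unadjusted p below 0.05 and lower in 0 (median 0.41). Tlr13, a receptor of bacterial ribosomal RNA, was at 26, 6.44 and 8.22 CPM in F1-L and 0.742, 1.58 and 2.19 CPM in F1-P. Tlr8 was at 11.4, 3.42 and 3.19 CPM in F1-L and 0.33, 0.584 and 0.729 CPM in F1-P. Irak3, an inhibitor of these receptors' signalling, was at 35.8, 53.6 and 32.2 CPM in F1-L and 14.6, 13.7 and 20.6 CPM in F1-P. Both receptors were highest in F1-L1, and Irak3 in replicate 2. Without F1-L1, F1-L3 or F1-P2 the count was 4, and without F1-P1 it was 5. By direction 16 of the 22 were higher and 6 lower, and Tlr7 (-0.59) and Ly96 (-0.40) were among the lower. Without overlap 8 were higher and 1 lower. The summed level of this list overlapped, at 844, 664 and 784 CPM in F1-L and 606, 803 and 761 CPM in F1-P. Il1b, interleukin 1 beta, was at 35.5, 9.42 and 29.3 CPM in F1-L and 1.85, 4.2 and 4.03 CPM in F1-P, and 3 of the 14 tested interleukin 1 and 18 family genes were higher at an unadjusted p below 0.05. Of 21 chemokine genes and receptors 4 were higher and 1 lower, with 4 lower without F1-L1. Cxcr2, which draws neutrophils, was at 76.5, 16.4 and 12.9 CPM in F1-L and 2.56, 4.67 and 8.65 CPM in F1-P, and Ccr1 at 32.2, 9.26 and 7.32 and 0.536, 2.22 and 3.35 CPM. Both had F1-L1 highest and F1-P3 the highest of F1-P.

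NF-kB feedback and response genes were lower rather than higher, with 2 higher and 5 lower of 19 (median -0.17). Relb was at 24.3, 22.8 and 27 CPM in F1-L and 32.6, 59.6 and 34.7 CPM in F1-P. Nfkb2 was at 84.3, 79.8 and 92 CPM in F1-L and 103, 183 and 117 CPM in F1-P. These partners of the non-canonical pathway did not overlap between the groups, and F1-P2 was the highest in both. Without F1-L2 the lower count was 1, without replicate 1 it was 2, and without F1-P3 it was 8. Tnfaip2 was an exception among them, at 81.7, 70.7 and 56.8 CPM in F1-L and 25.2, 19.3 and 46.9 CPM in F1-P. Of 22 immediate early genes, which respond to cell handling, 0 were higher and 1 lower, with 5 lower without F1-L3 and 3 without F1-P1, and Ier5 was at 191, 213 and 254 CPM in F1-L and 296, 444 and 284 CPM in F1-P. Of 12 heat shock genes 3 were higher and 0 lower. The inducible gene Hspa1b was at 52.5, 39.1 and 65.4 CPM in F1-L and 24.1, 28.1 and 20.3 CPM in F1-P without overlap, and in C57BL/6 it ranged from 0.411 to 74.3 CPM.

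Cholesterol synthesis and uptake genes were lower in F1-L. Of 25 tested genes of the list, 3 were higher, Apoe among them, and 7 lower at an unadjusted p below 0.05, and 9 were lower without overlap (median -0.28). Scd2, a fatty acid desaturase, was at 144, 197 and 164 CPM in F1-L and 297, 218 and 313 CPM in F1-P. It was lower in every F1-L library than in any F1-P library. In the difference between strains 7 of the 25 were lower and 0 higher. The 3 higher came to 1 without F1-L1, F1-L2, F1-P1 or F1-P2. Glycolysis genes had a median of 0.20 with 6 of 19 higher and 0 lower, and 3 without F1-P2. Slc2a3, a glucose transporter, was at 157, 122 and 115 CPM in F1-L and 75.6, 67 and 85.5 CPM in F1-P, and Hk1, the first enzyme of the pathway, at 223, 305 and 203 and 157, 143 and 159.8 CPM.

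Few proliferation genes differed. None of 26 DNA replication genes had an unadjusted p below 0.05 in either direction (median -0.01). Mcm2, a subunit of the replicative helicase, was at 173, 197 and 172 CPM in F1-L and 241, 154 and 176 CPM in F1-P. Mki67, the antigen Ki-67, was at 544, 413 and 400.2 CPM in F1-L and 472, 424 and 477 CPM in F1-P. The log2 fold change of Mki67 was -0.03 ± 0.16, and of Top2a -0.05 ± 0.18. Of 28 mitosis genes, 1, Ccna2, was higher at an unadjusted p below 0.05, at 105, 79.6 and 73.9 CPM in F1-L and 67.2, 64.7 and 59.2 CPM in F1-P, with 7 without F1-P1, 2 without F1-L2, and 0 without F1-P2 or F1-P3. Ccnd1, the G1 cyclin that growth signals induce, was at 22.9, 26.7 and 29.2 CPM in F1-L and 14.7, 10.9 and 13.8 CPM in F1-P without overlap. The log2 fold change of Ccnd1 was 0.95 ± 0.16 (limma adjusted p = 0.172). The cell cycle inhibitor Cdkn2d was at 48, 34.9 and 37.4 CPM in F1-L and 25.6, 18.5 and 27.6 CPM in F1-P, and Cdkn2c at 28.8, 21.7 and 25.2 and 14.4, 17.6 and 17.8 CPM. Of 20 G1 cyclin, kinase and inhibitor genes 4 were higher and 0 lower, and of 26 DNA damage genes 4 were higher, 2 without any one F1-L library or F1-P2, and 2 lower. Trp53 was at 133, 128 and 146 CPM in F1-L and 139, 113 and 138 CPM in F1-P, its target Eda2r at 1.16, 1.99 and 1.35 and 0.453, 0.408 and 0.583 CPM, and its target Sesn1, lower in F1-L, at 88.7, 98.7 and 101 and 118, 154 and 132 CPM. Eda2r was higher with age in C57BL/6 as well (0.85 on the log2 scale). Cytosolic ribosomal protein genes had a median of 0.04 (81 tested), nuclear-encoded respiratory chain genes -0.08 (79 tested), and mitochondrially encoded genes -0.21 (7 tested). Together they held 1 gene higher and 3 lower at an unadjusted p below 0.05. Of 26 chromatin and DNA methylation regulators 0 were higher and 2 lower, and of 12 replication-dependent histone genes 0 were higher or lower.

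Genes of plasma cells, which secrete antibody and reside in bone marrow, were lower in F1-L. All 20 tested were lower (median -0.76), but 4 had an unadjusted p below 0.05, and leaving out F1-P1 raised that to 18 while leaving out F1-L1, F1-P2 or F1-P3 brought it to 1. With age in C57BL/6 the median was below 0 too (-0.80), with 0 higher and 6 lower at an unadjusted p below 0.05. The median difference between strains was 0.03. The summed level was 11759, 12992 and 16485 CPM in F1-L and 17294, 45367 and 40293 CPM in F1-P, so that F1-P1 stood close to F1-L. In C57BL/6 the sum was far lower, at 803, 636 and 3202 CPM in B6-O and 1313, 2816 and 2533 CPM in B6-Y. The C57BL/6 age groups overlapped in it, and B6-O3 was the highest. Sdc1, the surface marker CD138, was at 182, 188 and 211 CPM in F1-L and 228, 489 and 432 CPM in F1-P. Jchain, which links immunoglobulin M units, was at 8286, 8063 and 10851 CPM in F1-L and 12939, 33325 and 30254 CPM in F1-P. Tnfrsf17, the survival receptor BCMA, was at 11.9, 26.7 and 29.7 CPM in F1-L and 29.5, 62.3 and 67.9 CPM in F1-P. In each, F1-P2 and F1-P3 were the highest. Protein folding genes of the endoplasmic reticulum were lower in 25 of 25 (median -0.49), 3 of them at an unadjusted p below 0.05, with 19 without F1-P1 and 0 without F1-L1, F1-L2, F1-P2 or F1-P3. Pdia6, a disulphide isomerase, was at 358, 285 and 419.99 CPM in F1-L and 386, 616 and 577 CPM in F1-P.

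Ighm, the mu constant gene, was the most abundant, at 84614, 121346 and 147457 CPM in F1-L and 105417, 263339 and 230281 CPM in F1-P. The kappa constant gene Igkc was at 36060.4, 47116 and 63935 CPM in F1-L and 43644, 103706 and 103934 CPM in F1-P. Both overlapped, with F1-P1 inside the F1-L range. Ighm made up 97.6 to 99.3% of heavy-chain constant reads in the 6 libraries, against 75.1 to 95.4% in C57BL/6. Of 241 tested immunoglobulin genes, 1 was higher and 59 lower at an unadjusted p below 0.05, between 43 and 103 on leaving out single libraries, with 103 without F1-P1. The shares of some V segments differed beyond the total. Ighv7-1 and Igkv4-58 were named because their levels passed the threshold in these libraries, so their shares are not separate support. Ighv7-1 made up 3.92, 3.86 and 2.72% of heavy V reads in F1-L and 22.5, 12.5 and 13.9% in F1-P. Igkv15-103 made up 3.67, 5.63 and 1.73% of kappa V reads in F1-L and 19.5, 10.6 and 8.84% in F1-P. Igkv4-58 made up 0.0346, 0.00912 and 0.0107% in F1-L and 0.354, 0.157 and 0.167% in F1-P. In all 3 the groups stayed apart and F1-P1, which had the fewest immunoglobulin reads of F1-P, had the highest share. Igkv14-126 went the other way, with 21.7, 18.9 and 20.2% of kappa V reads in F1-L and 4.76, 11.6 and 15.7% in F1-P. Igkv1-88 overlapped, with 11, 3.48 and 2.82% in F1-L and 6.18, 15.1 and 6.56% in F1-P. Ighv7-1 was also lower in B6-O (5.2, 5.31 and 15.8 CPM) than in B6-Y (119.7, 93.6 and 59 CPM), and its difference between strains was 0.29 ± 0.50 (limma adjusted p = 0.977). Reads were aligned to the C57BL/6 genome, from whose V segments the NZB and NZW alleles can differ, and V segments share sequence, so levels of single segments are uncertain.

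**Figure D4:**
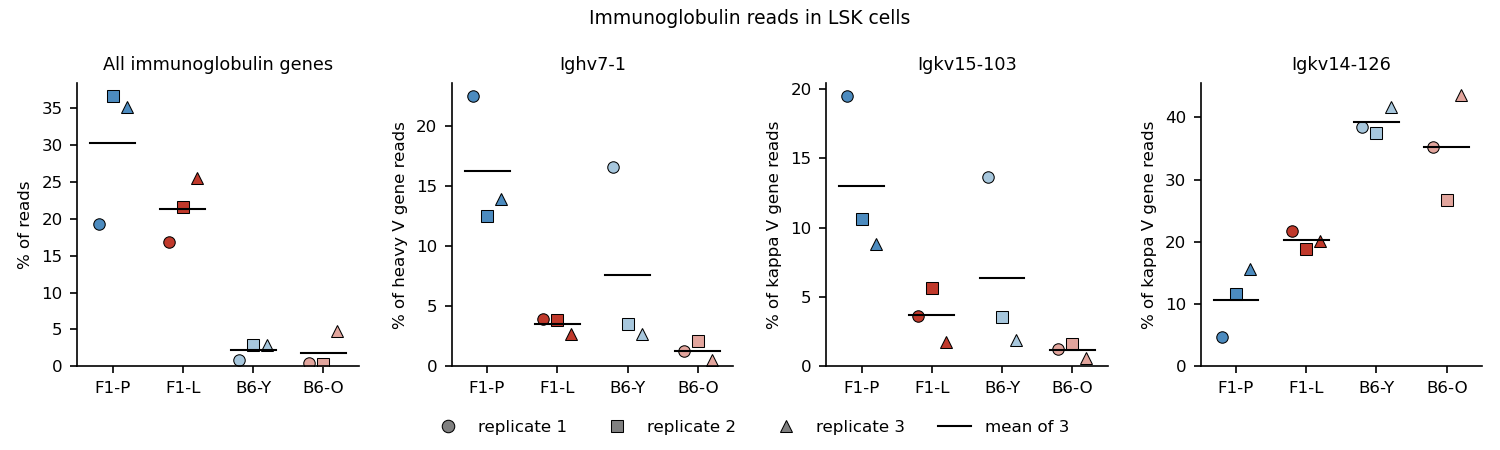
Share of reads in immunoglobulin genes, and the share of 3 V segments among the reads of their own V gene class, in each of the 12 LSK libraries, with a bar at the mean of 3. Ighv7-1 and Igkv15-103 take a smaller share in every F1-L library than in any F1-P library, and Igkv14-126 a larger one.

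Of the 12 genes outside the immunoglobulins with the most negative fold changes among those called by the likelihood ratio test without overlap, 10 were highest of F1-P in replicate 2. AU015791 was at 3.04, 1.87 and 1.84 CPM in F1-L and 5.48, 24.7 and 15.8 CPM in F1-P. Nox1, an NADPH oxidase, was at 9.33, 14.1 and 12.4 CPM in F1-L and 23.9, 75.2 and 49.2 CPM in F1-P. Ccr10, a chemokine receptor of antibody-secreting cells, was at 2.32, 0.875 and 1.89 CPM in F1-L and 4.7, 13.8 and 9.62 CPM in F1-P. Reln, which encodes reelin, was at 15.3, 18.2 and 19 CPM in F1-L and 26.8, 82.7 and 75.1 CPM in F1-P. Il10, the anti-inflammatory cytokine, was at 4.85, 10.7 and 12.2 CPM in F1-L and 18.1, 60 and 18.3 CPM in F1-P. In these 5 the order within F1-P was that of the immunoglobulin share, and the part of plasma cells in them was not tested. Aire, the autoimmune regulator, was at 5.05, 5.61 and 6.11 CPM in F1-L and 12.9, 27.7 and 16 CPM in F1-P, and was lower with age in C57BL/6 too, at 8.06, 6.54 and 9.86 CPM in B6-O and 12.7, 23.9 and 14.2 CPM in B6-Y. The exceptions, highest in F1-P1, were Gfra1, a glial growth factor receptor, at 3.93, 4.69 and 2.38 CPM in F1-L and 42.4, 15.6 and 8.36 CPM in F1-P, and Rag2.

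Among the markers of other cell types that the sort could hold, the summed level of basophil and mast cell genes was 264, 328 and 283 CPM in F1-L and 137, 158 and 142 CPM in F1-P, without overlap. This list shares Gata2 with the megakaryocyte list, and Gata2 made up most of the sum in F1-L2 and F1-L3. Summed without Gata2, the groups overlapped and F1-L2 was the lowest library. Of 18 plasmacytoid dendritic cell genes 2 were higher and 3 lower, with 7 higher without F1-L2. Of 15 conventional dendritic cell genes 5 were higher and 0 lower, with 1 higher without F1-P1, 2 without F1-P2 and 3 without F1-L1 or F1-L3. The summed level of both dendritic lists overlapped and had a lower mean in F1-L than in F1-P, at 937, 719 and 926 against 1234.2, 856 and 921 CPM for the conventional list and 1781, 1080.4 and 1905 against 1469, 1797 and 1890.5 CPM for the plasmacytoid list. Siglech, the defining plasmacytoid marker, was at 48.9, 7.75 and 50 CPM in F1-L and 18, 19.1 and 18.9 CPM in F1-P, with F1-L2 the lowest of all 6, as for Irf8. Lair1, an inhibitory receptor, was at 29, 30.3 and 30.3 CPM in F1-L and 9.81, 10.2 and 19.3 CPM in F1-P. In C57BL/6 9 of the 18 plasmacytoid genes were lower with age, and in the difference 8 were higher. Prss34, a protease of basophils, was at 18.2, 4.25 and 3.1 CPM in F1-L and 1.65, 0.642 and 1.12 CPM in F1-P, and 5 of 9 basophil and mast cell genes were higher, with 2 without F1-L1 and 3 without F1-L3, F1-P2 or F1-P3. The eosinophil sum was 631, 146 and 74.9 CPM in F1-L and 53.4, 159 and 299.9 CPM in F1-P, with overlap and 0 of 8 genes at an unadjusted p below 0.05, or 3 without F1-L3 and 2 without F1-P3. T cell genes were lower in 18 of 20 (median -0.37), 2 of them at an unadjusted p below 0.05 and 13 without F1-L1. Cd3e was at 14.2, 3.7 and 4.13 CPM in F1-L and 8.49, 13.3 and 8.36 CPM in F1-P. Ncr1, an NK cell receptor, overlapped at 124, 64.3 and 43.6 CPM in F1-L and 55.5, 84.9 and 77 CPM in F1-P, and of 21 NK genes tested 1, Gzmb, was higher and 0 lower, with 7 lower without F1-L1. Of 14 stromal and endothelial genes 3 were higher and 0 lower. Of 13 mature B cell genes 2 were higher and 0 lower. No cell type marker that the deposited LSK table holds was at 0 in all 6 libraries. It held 16 of the 18 listed basophil and mast cell genes and 20 of the 22 stromal and endothelial genes.

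With immunoglobulin genes removed and the scaling recomputed on the other reads, none of the 14484 genes tested passed the limma thresholds, against the 2 that remained on the plain totals, Apoe and Emilin2. At an unadjusted p below 0.05, 1333 genes were then higher and 585 lower on the recomputed scaling, and 1625 and 404 on the totals. The log2 fold changes of Apoe and Emilin2 were 1.35 and 1.86 without immunoglobulin genes. On the recomputed scaling the medians of all 42 other lists kept their sign, while on the totals those of the DNA replication and heat shock genes changed sign. On the recomputed scaling the neutrophil median stayed at 2.86 and the plasma cell median at -0.76. On that scaling the count at an unadjusted p below 0.05 stayed at 17 for neutrophil and 15 for macrophage genes, and came from 12 to 13 for megakaryocyte, from 4 to 5 for plasma cell and from 3 to 6 for protein folding genes.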

How the data were processed

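LSK cells were sorted from bone marrow of female NZBW/F1 and C57BL/6 mice, and RNA was sequenced with a kit that does not keep strand. The authors aligned single-end reads with STAR 2.6 to the mouse genome (mm10/GRCm38), counted reads per gene with HTSeq and deposited CPM values on library sizes scaled by edgeR, so the unit of the deposited table is a signal, CPM on a scaled library size, whose columns sum to different totals. Whole reads were recovered from it: 100% of values were within 0.01 of a whole number of reads. The column of each sample was matched to its label by name, and the table of another progenitor population was not used here. Each library held 23772252 to 27288453 reads in genes, so counting error is small against the spread between libraries except for genes near 1 CPM.

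Genes with at least 1 CPM in at least 3 of the 6 libraries were tested with limma 3.58.1 (trend) on log2(CPM + 1), with Benjamini-Hochberg adjustment and thresholds of 0.05 and 1.5-fold. Fold changes are on that scale and understate those of low genes. The C57BL/6 age contrast and the difference of differences came from 1 limma fit of the 12 LSK libraries with the same filter. The edgeR 4.0.16 likelihood ratio and quasi-likelihood tests and DESeq2 1.42.0 ran on the recovered reads as alternatives, with R 4.3.3. Other alternatives were the pseudocount, the filter, the scaling, removal of immunoglobulin genes and omission of each replicate. Simulated data for the comparison of F1-L with F1-P, with 200 changed genes, were used to check the scripts: limma recovered 46 of them at 2-fold among 14165 genes and 186 at 4-fold among 14179, and the likelihood ratio test 124 and 194 with 34 and 41 false calls.

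Named genes were those past the thresholds, the 12 largest positive and 12 largest negative fold changes among genes outside the immunoglobulins with a mean of at least 5 CPM, groups that do not overlap and a likelihood ratio call, the first 2 and the 3 lowest-p members of each of 43 gene lists, the main immunoglobulin genes, the genes the study names, and the 5 genes with the lowest adjusted p in the difference of differences. In addition, 16 genes were chosen after their values were seen: Rag1, Dntt, Ebf1, Vpreb1, Hbb-bs, Vwf, Thbs1, Itgam, Ly6g, Fcgr3, Cmah, Slc18a2, Ighv3-5, 5830418P13Rik, Cd74 and H2-Eb2. The gene lists and members were chosen with earlier results of these data known. Listed counts at an unadjusted p below 0.05 are descriptions and were not tested as sets. Replicate numbers were not treated as pairs, since same-numbered F1-L and F1-P libraries did not deviate together (correlations of their deviations -0.01, -0.04 and 0.03).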

Additional observations from a re-analysis of the deposited data

How the results depend on the processing

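The 4 genes called for F1-L against F1-P were 4 with a robust fit, a mean of at least 5 CPM, median of ratios scaling or no fold minimum, 5 with no filter, and 3 with a pseudocount of 0.1 or 0.5 or the edgeR quasi-likelihood test. The count was 734 with DESeq2, 657 with the edgeR likelihood ratio test and 369 with that test on all 12 LSK libraries. It was 26 with limma on all 12 libraries, 2 without immunoglobulin genes on total scaling and 0 without them on TMM scaling. Of the DESeq2 calls 618 were also likelihood ratio calls in the same direction. Leaving out single replicates gave 0 to 25 calls with limma. With the likelihood ratio test it gave 640, 396 and 447 calls without F1-L replicates 1, 2 and 3, and 765, 171 and 811 without F1-P replicates 1, 2 and 3, a setting chosen after seeing the data, as were the counts of list members without single libraries and without immunoglobulin genes. At an unadjusted p below 0.05 those omissions gave 759 to 1237 higher and 289 to 1150 lower genes. The causes were not tested. With the replicate block 0 genes passed, and 1105 were higher and 709 lower at an unadjusted p below 0.05. Pairing by number has no basis in the labels, so a call lost under the block is not a weaker effect.

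For the difference of differences limma called 0 genes, as it did under each other limma setting on all 12 libraries, the replicate block included, where 473 were higher and 273 lower at an unadjusted p below 0.05. The likelihood ratio test called 10 and DESeq2 29, and leaving out single replicates gave 0 to 1. None of the 4 called genes changed sign, and 9 other named genes did under at least 1 alternative (Hbb-bs, Igkv14-126, Mcm2, Mcm3, Mki67, Ncr1, Prg2, Top2a and Trp53). Among 43 list medians under 17 alternatives, 26 of 729 values moved by more than the spread between replicates and 11 lists changed sign at least once: DNA replication, mitosis, MHC class I, chemokine, immediate early, heat shock, mature B cell, NK, plasmacytoid and conventional dendritic cell and ribosomal protein genes. The design limits the result to 3 libraries a group, with disease and age joined. The uneven immunoglobulin share leaves 15081700 to 20928715 reads for other genes, and no genotype-specific genome was used.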

Other observations

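Several genes lay just outside the adjusted threshold and are given as values, chosen after they were seen. Cmah, which makes a sialic acid form, was at 168, 162 and 155 CPM in F1-L and 342, 389 and 295 CPM in F1-P (limma adjusted p = 0.11). Slc18a2, a transporter of monoamines that basophils and mast cells use, was at 152, 215 and 155 CPM in F1-L and 65.3, 59.5 and 76 CPM in F1-P (limma adjusted p = 0.114). The unnamed gene 5830418P13Rik was at 5.05, 6.08 and 5.79 CPM in F1-L and 15.3, 17.7 and 14 CPM in F1-P (limma adjusted p = 0.0986). The V segments Ighv6-3 and Ighv3-5 were at 91.2, 141 and 134 and 0.0401, 0.0795 and 1.03 CPM in F1-L and at 406, 548 and 555 and 7.96, 8.75 and 6.27 CPM in F1-P (limma adjusted p = 0.0628 and 0.0784). The groups did not overlap in any of these 5 genes.

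In the difference of differences the genes with the lowest p after Cd5l included Kcnt1, a sodium-activated potassium channel. It was at 4.17, 3.58 and 3.01 CPM in F1-L and 0.824, 0.759 and 1.17 CPM in F1-P, and at 0.0933, 0.0632 and 0.267 CPM in B6-O and 0.217, 0.405 and 0.172 CPM in B6-Y, with log2 fold changes of 1.26 in NZBW/F1 and -0.15 in C57BL/6 (limma adjusted p of the difference = 0.374). All C57BL/6 values were below 1 CPM, where the log2(CPM + 1) scale holds any fold change close to 0.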
